A study of Mus musculus with 2 samples.

Results

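The tumor necrosis factor (TNF) superfamily comprises the ligands TNF, the lymphotoxins, FASL, CD40L and their relatives, together with the receptors that bind them. Its genes were taken by symbol, as all names beginning with *Tnfsf* or *Tnfrsf* and a digit plus *Tnf*, *Lta*, *Ltb*, *Ltbr*, *Fas*, *Fasl*, *Cd27*, *Cd70*, *Cd40*, *Cd40lg*, *Eda* and *Ngfr*. Of 44 such genes in the RefSeq annotation, 42 had a probe on the arrays, 17 of them ligands and 25 receptors, out of 20887 named genes. *Tnfsf13*, which encodes the ligand APRIL, and the noncoding *Tnfsf13os* had none.

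Gene expression was measured in TCRαβ+ CD8αα+ intraepithelial lymphocytes (IELs), a population of T cells that lives in the epithelial layer of the gut. The cells came from the small intestine of C57BL/6 mice, males and females pooled, and were sorted as CD4-, TCRγδ- and CD8β-. One group, labelled Control, carried floxed *Rbpj* (Rbpjf/f), and the other, labelled RFF4, carried CD4-Cre with floxed *Rbpj*, the mice called Rbpj-/- in the study. RBPJ is the DNA-binding protein through which Notch receptors switch on transcription, and CD4-Cre acts in T cells that have passed through a stage expressing CD4, so that other cells of these mice keep the gene. The labels give an age of 8 to 12 wk and no Cre for the Control mice, whereas the study describes Rbpj+/+ controls that also carry CD4-Cre, aged 8 to 10 wk. RNA of several isolations was pooled for each genotype and hybridized to 1 array, so that 2 arrays were compared, no test or standard error across mice could be given, and every difference is between these 2 pools.

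Ligands of the TNF superfamily are mostly membrane proteins that assemble in groups and can be shed, and their receptors signal from the surface of the opposing cell. Some receptors carry a death domain and can trigger apoptosis through FADD and caspase-8, whereas others recruit TRAF adaptors and activate the canonical or the alternative NF-κB pathway. In the intestine, lymphotoxins and LIGHT act on the lymphotoxin β receptor of stromal, myeloid and epithelial cells, and IELs are known for a cytotoxic program that includes FASL.

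Signals are given as log2 values relative to the 75th percentile of the gene probes on the same array, and differences as RFF4 minus Control, so that higher and lower describe the array labelled RFF4. A gene is represented by its brightest probe, which for most members was read from 1 spot on each array. Of 59305 gene spots per array, 57.2% were well above background on the Control array and 49.7% on the array labelled RFF4. The technical SD of a difference, from probes spotted repeatedly on an array, was 0.158, and it covers neither mice nor pools. *Rbpj* itself had a signal of 1.96 on the Control array and 2.28 on the array labelled RFF4, and −1.44 and −0.62 with its other probe, so that neither probe was lower with this scaling. The position of its probes relative to the floxed exons is not given in the sources used here, so they check nothing about the deletion. Of 6 Notch targets listed, 5 have a difference. *Heyl* and *Dtx1* were lower, with differences of −3.80 and −3.63, whereas *Hey1* (0.45) and *Nrarp* (0.08) differed by less than 2-fold and *Hes1*, not well above background on the Control array, was at least 2.99-fold higher.

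Of the 42 members, 33 were well above background on at least 1 array, and 32 of these were well above it on both and have a measured difference. Of these 32, 9 (28.1%) were more than 2-fold higher, beside 12.3% of the 13513 named genes with a difference and 11.7% of the 12955 measured above background on both arrays. More than 2-fold lower were 2 members (6.25%), beside 5.06% and 4.51% of those genes. None (0) of the members differed by more than 4-fold, where 1.85% of the 13513 genes were higher and 0.585% lower by that much. The median difference was 0.22 over the members, 0.37 over 12 ligands and 0.10 over 20 receptors, where the median of all genes was −0.02. These medians depended on the scaling, and with each array scaled to its median the receptors had −0.07 and the ligands 0.19. Under cyclic loess and with the mean of all probes the receptors had the higher median, at 0.20 and 0.26 against 0.16 and 0.22. When 8 spike-in controls were instead set equal on both arrays, the difference of every gene shifted by −1.12. In that setting the ligands had a median of −0.86 and the receptors −1.02, 0 members were more than 2-fold higher, beside 1.39% of all genes, and 14 were more than 2-fold lower, beside 56.9% of all genes. That scaling subtracts the same constant from every gene, and it left the 9 higher members between 0.06 and 0.75, with *Tnfrsf13c*, *Tnfrsf19* and *Tnfsf14* within the technical SD of 0. It also changed which genes have a difference, 14212 in place of 13513, so that the ligand median moved by −1.23 rather than by −1.12.

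**Figure D1:**
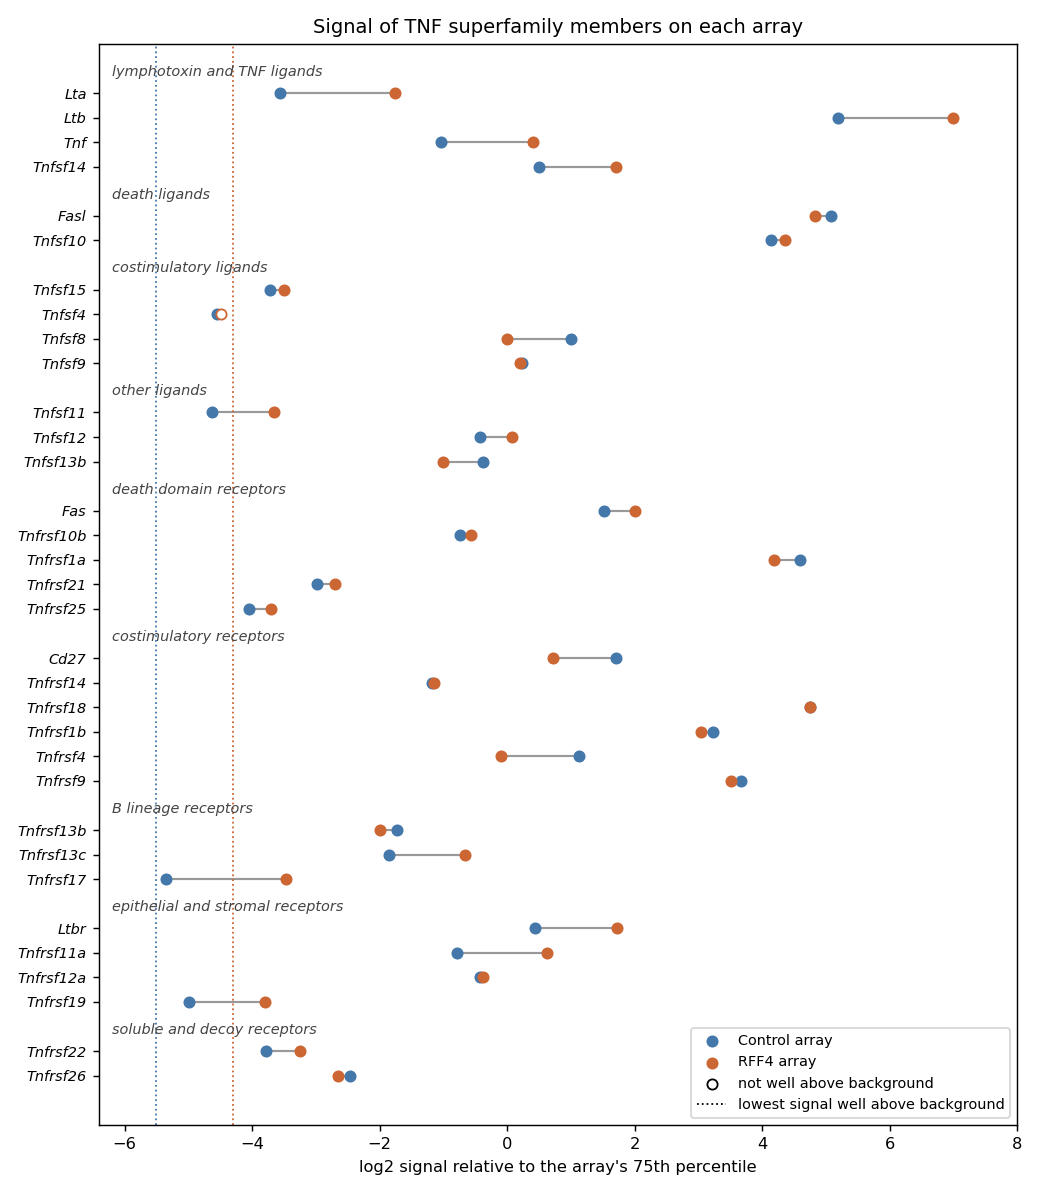
Log2 signal of each member well above background on at least 1 array, relative to the 75th percentile of its array, by role of the protein. Each row joins the Control value to the RFF4 value of a gene, open points are not well above background, and dotted lines mark the lowest signal that was. *Ltb*, *Lta*, *Tnf* and *Tnfsf14* in the top group all lie to the right on the array labelled RFF4, whereas *Tnfrsf4*, *Tnfsf8* and *Cd27* lie to the left.

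All 4 ligands grouped as lymphotoxin and TNF ligands, LIGHT included, were more than 2-fold higher, beside 12.3% of all genes, and the groups were drawn up with earlier results known. *Ltb* encodes lymphotoxin β, which anchors the lymphotoxin heterotrimer to the membrane. Its signal was 5.18 on the Control array and 6.999 on the array labelled RFF4, a difference of 1.82 (3.52-fold) between 1 spot on each array. *Lta*, which encodes the secreted lymphotoxin α that joins it, had −3.57 and −1.76, a difference of 1.81 (3.50-fold). On each array *Lta* was read from 9 spots, with an SD between spots of 0.113 on the Control array and 0.083 on the other, so that the spots of the 2 arrays are far apart relative to spotting error. *Tnf*, the gene of the founding cytokine, had a signal of −1.04 on the Control array and 0.40 on the array labelled RFF4. The difference was 1.44 (2.72-fold), and the SD over 10 spots was 0.088 and 0.067. *Tnfsf14*, which encodes LIGHT, a costimulatory ligand of HVEM and of the lymphotoxin β receptor, had 0.49 and 1.71, a difference of 1.21 (2.32-fold). Like *Ltb*, it was read from 1 spot on each array. In the scanner signals before scaling, where the array labelled RFF4 was dimmer at the 75th percentile (7.82 against 8.99), *Ltb* still read higher there, at 28984 against 18495. *Tnf* read 299.9 against 248, *Lta* 66.8 against 42.9 and *Tnfsf14* 739 against 717.

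*Ltb*, *Tnf* and *Lta* are direct neighbors on chromosome 17, with 0 protein-coding genes between them in the RefSeq order of assembly GRCm38.p6. Because these 3 adjacent genes were higher together, the 250 bases before their transcription start are shown from RefSeq (GRCm38.p6), 5′ to 3′ on the strand of the gene. Capitals mark the matches to 3 motifs that were searched on both strands. These were the RBPJ core TGGGAA, whose other strand reads TTCCCA, the NF-κB consensus, and the TATA box as TATAAA, whose other strand reads TTTATA.
Ltb, chr17:35194257-35194506, + strand: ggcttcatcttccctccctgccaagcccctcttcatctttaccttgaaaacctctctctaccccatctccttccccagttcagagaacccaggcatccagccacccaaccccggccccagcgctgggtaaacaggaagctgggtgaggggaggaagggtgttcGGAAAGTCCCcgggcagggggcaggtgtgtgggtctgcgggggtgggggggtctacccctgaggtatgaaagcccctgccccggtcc
Tnf, chr17:35202008-35202257, - strand: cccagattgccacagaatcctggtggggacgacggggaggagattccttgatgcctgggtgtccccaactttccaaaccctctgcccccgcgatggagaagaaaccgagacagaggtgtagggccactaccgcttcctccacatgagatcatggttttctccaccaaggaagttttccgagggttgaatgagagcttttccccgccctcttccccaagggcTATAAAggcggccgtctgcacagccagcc
Lta, chr17:35205352-35205601, - strand: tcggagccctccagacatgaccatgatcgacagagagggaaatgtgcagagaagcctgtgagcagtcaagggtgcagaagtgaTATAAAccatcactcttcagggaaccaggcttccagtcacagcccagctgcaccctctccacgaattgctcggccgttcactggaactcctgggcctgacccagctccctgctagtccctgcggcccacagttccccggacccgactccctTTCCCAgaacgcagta
The *Ltb* window held the NF-κB consensus at position −87 from the start and no other match. The *Tnf* window held TATAAA at −29, the usual place of a TATA box, and the *Lta* window held it at −167 and the reverse of the RBPJ core at −16. Of the 42 members, 32 had a promoter in the table. TGGGAA occurred in 7 of these 32 (*Eda*, *Fas*, *Lta*, *Tnfrsf14*, *Tnfrsf23*, *Tnfrsf9* and *Tnfsf15*), beside 24.1% of 27025 genes and 21.6% of 32851 promoter windows. *Lta* was the only (1) member of the 9 higher ones with it, and 0 of the 2 lower ones had it. The longer GTGGGAA was found for *Eda* and *Tnfrsf23*, both below background on the arrays, beside 6.18% of genes. The NF-κB consensus occurred for *Ltb*, *Tnfrsf25*, *Tnfrsf8* and *Tnfrsf9*, beside 8.23% of genes, and in the *Tnfrsf9* window it overlaps the RBPJ core. The TATA box occurred for 6 members (*Lta*, *Tnf*, *Tnfrsf17*, *Tnfrsf23*, *Tnfsf11* and *Tnfsf18*), beside 14.3% of genes. The NF-κB consensus and the TATA box were chosen after the differences had been seen, and a match of letters shows no binding.

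Among the other ligands, neither death ligand differed by 2-fold. *Fasl*, which encodes the ligand through which cytotoxic T cells kill cells bearing FAS, had 5.08 on the Control array and 4.83 on the array labelled RFF4 (−0.25), and under the spike-in scaling it was more than 2-fold lower, at −1.37. *Tnfsf10*, which encodes the death ligand TRAIL, had 4.14 and 4.35 (0.21), and under the spike-in scaling it was −0.91. *Tnfsf8* encodes CD30L, a costimulatory ligand of activated T cells. Its signal was 0.99 on the Control array and −0.01 on the array labelled RFF4, a difference of −1.0 that lies just past 2-fold, and under quantile normalization, cyclic loess and background correction with the normexp model it was no longer past it. *Tnfsf9*, which encodes 4-1BBL, had 0.23 and 0.20, within the technical SD. *Tnfsf15*, the gene of TL1A, had −3.72 and −3.50, a difference of 0.23. *Tnfsf4*, which encodes OX40L, was well above background on the Control array only, at −4.56 against −4.48, and no difference is given. *Tnfsf13b*, the gene of the B cell survival factor BAFF, had −0.38 and −1.01, a difference of −0.63. *Tnfsf11*, which encodes RANKL, a ligand known for bone resorption and for inducing M cells in the gut, had −4.64 and −3.66, and its difference of 0.97 lies just inside 2-fold. For *Tnfsf12*, the gene of TWEAK, the probes disagreed. The brighter probe had −0.42 and 0.08 (0.51) and the other −1.35 and −1.66 (−0.32).

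Of the receptors placed with epithelial and stromal cells for their known sites of expression, 3 of 4 were more than 2-fold higher, beside 12.3% of all genes and 27.0% of the genes as dim as *Tnfrsf19*. *Ltbr* encodes the lymphotoxin β receptor, which T cells as a rule do not express and through which lymphotoxin and LIGHT activate the alternative NF-κB pathway. Its signal was 0.43 on the Control array and 1.71 on the array labelled RFF4, a difference of 1.28 (2.43-fold). *Tnfrsf11a*, which encodes RANK, the receptor of RANKL on osteoclast precursors, dendritic cells and M cell precursors, had −0.79 and 0.63, a difference of 1.42 (2.68-fold). *Tnfrsf19*, the gene of TROY, a receptor of intestinal stem cells, had −4.99 and −3.79, both near the lowest signals well above background (−5.51 and −4.29). Its difference of 1.2 (2.30-fold) was lost as a 2-fold difference under cyclic loess. Its other probe was well above background on the Control array only, at −5.05 against −5.37, and has no difference. *Tnfrsf12a*, which encodes the TWEAK receptor FN14, had −0.42 and −0.39, within the technical SD.

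Of the 4 receptors of the B lineage, 3 have a difference and 2 were more than 2-fold higher, beside 12.3% of all genes, 27.0% of genes as dim as *Tnfrsf17* and 19.6% of those in the signal range of *Tnfrsf13c*. *Tnfrsf17* encodes BCMA, the receptor of BAFF and APRIL on plasma cells. It had −5.35 on the Control array, just above the lowest signal well above background, and −3.48 on the array labelled RFF4, which is a difference of 1.88 (3.67-fold) between dim signals. Across the alternatives without the spike-in scaling it ranged from 1.01 to 1.88. *Tnfrsf13c*, the gene of the BAFF receptor of B cells, had −1.85 and −0.66, a difference of 1.19 (2.28-fold), and its other probe differed by 1.46. With normexp background correction *Tnfrsf13c* was 0.93 and no longer past 2-fold. *Tnfrsf13b*, which encodes the related receptor TACI, had −1.72 and −1.99, a difference of −0.27 that turned to 0.14 with normexp background correction. *Cd40*, the receptor of B cells, dendritic cells and macrophages for CD40L, was not well above background on either array.

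The costimulatory receptors of T cells, which recruit TRAF adaptors, had a median of −0.17, with 5 of 6 measured genes lower, beside 6909 of the 13513 named genes. Of the 5, *Tnfrsf18* was lower by less than the technical SD and *Tnfrsf9* with 1 of its probes only. *Tnfrsf4* encodes OX40, which prolongs the survival of activated T cells. Its signal was 1.12 on the Control array and −0.09 on the array labelled RFF4, a difference of −1.21 (2.31-fold lower). It was more than 2-fold lower in 10 of 10 alternatives, between −1.09 and −1.39 without the spike-in scaling, but several of these could not change it. *Tnfrsf4* was read from 1 spot of 1 probe on each array. Averages over probes, the filters and the outlier spots therefore left it at −1.21. The 250 bases before its start, from the same RefSeq table, are shown for comparison with the higher ligands, and none of the motifs above was found in them, so that they hold no capitals.
Tnfrsf4, chr4:156013445-156013694, + strand: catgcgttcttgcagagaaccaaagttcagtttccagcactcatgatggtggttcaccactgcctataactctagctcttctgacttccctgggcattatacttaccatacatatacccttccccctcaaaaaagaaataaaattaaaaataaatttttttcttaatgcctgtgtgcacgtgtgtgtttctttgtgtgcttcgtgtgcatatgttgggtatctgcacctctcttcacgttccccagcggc
*Cd27*, which encodes the receptor for CD70 on T cells and on memory B cells, had 1.71 on the Control array and 0.72 on the array labelled RFF4. Its difference of −0.99 lies just inside 2-fold (1.99-fold lower). Its other probe had 1.52 and 0.37, a difference of −1.15, and *Cd27* was more than 2-fold lower in 4 of 10 alternatives. *Tnfrsf18*, the gene of GITR, lies next to *Tnfrsf4* on chromosome 4 and had 4.75 on both arrays. *Tnfrsf1b*, which encodes the TNF receptor without a death domain, had 3.22 and 3.05 (−0.18). *Tnfrsf9*, the gene of 4-1BB, had 3.67 and 3.50 with its brighter probe (−0.17) but 2.07 and 2.85 with the other (0.78), so that its direction depended on the probe. *Tnfrsf14*, which encodes HVEM, had −1.18 and −1.15 with its brighter probe, within the technical SD, and −1.65 and −1.20 with the other, a difference of 0.46.

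None of the receptors with a death domain differed by 2-fold. *Tnfrsf1a*, which encodes the widely expressed death domain receptor of TNF, had 4.59 on the Control array and 4.18 on the array labelled RFF4, a difference of −0.41. The SD over its 10 spots was 0.034 and 0.029, and its other probe differed by −0.34. *Fas*, the receptor of FASL, had 1.53 and 2.0, a difference of 0.48 that was −0.65 under the spike-in scaling. *Tnfrsf10b*, the TRAIL receptor of the mouse, had −0.74 and −0.57 (0.17). *Tnfrsf21*, the gene of death receptor 6, and *Tnfrsf25*, the gene of the TL1A receptor, differed by 0.28 and 0.35 at low signals (−2.99 and −4.06 on the Control array). Of the receptors grouped as decoys, *Tnfrsf22* had −3.79 and −3.26 (0.53) and *Tnfrsf26* had −2.47 and −2.65 (−0.18, and 0.31 with normexp background correction). Under the spike-in scaling, all of these receptors were lower on the array labelled RFF4. *Tnfrsf1a* (−1.53) and *Tnfrsf26* (−1.30) were then more than 2-fold lower, beside 56.9% of all genes.

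Not well above background on either array were 9 members. These were the ligand genes *Cd40lg*, *Cd70*, *Eda* and *Tnfsf18* (GITRL) and the receptor genes *Cd40*, *Ngfr*, *Tnfrsf8* (CD30), *Tnfrsf11b* (the soluble RANKL decoy osteoprotegerin) and *Tnfrsf23* (a decoy receptor). *Ngfr*, the nerve growth factor receptor, was read from 10 spots at −5.86 and −5.55, with SDs of 0.602 and 0.830, which shows how widely spots scatter at background. Without the filter on background, *Cd40*, *Cd40lg*, *Eda*, *Tnfrsf8* and *Tnfsf18* would count as more than 2-fold higher, for a total of 14 members. In that setting 30.02% of all 20887 genes were more than 2-fold higher, so nothing was read from it.

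**Figure D2:**
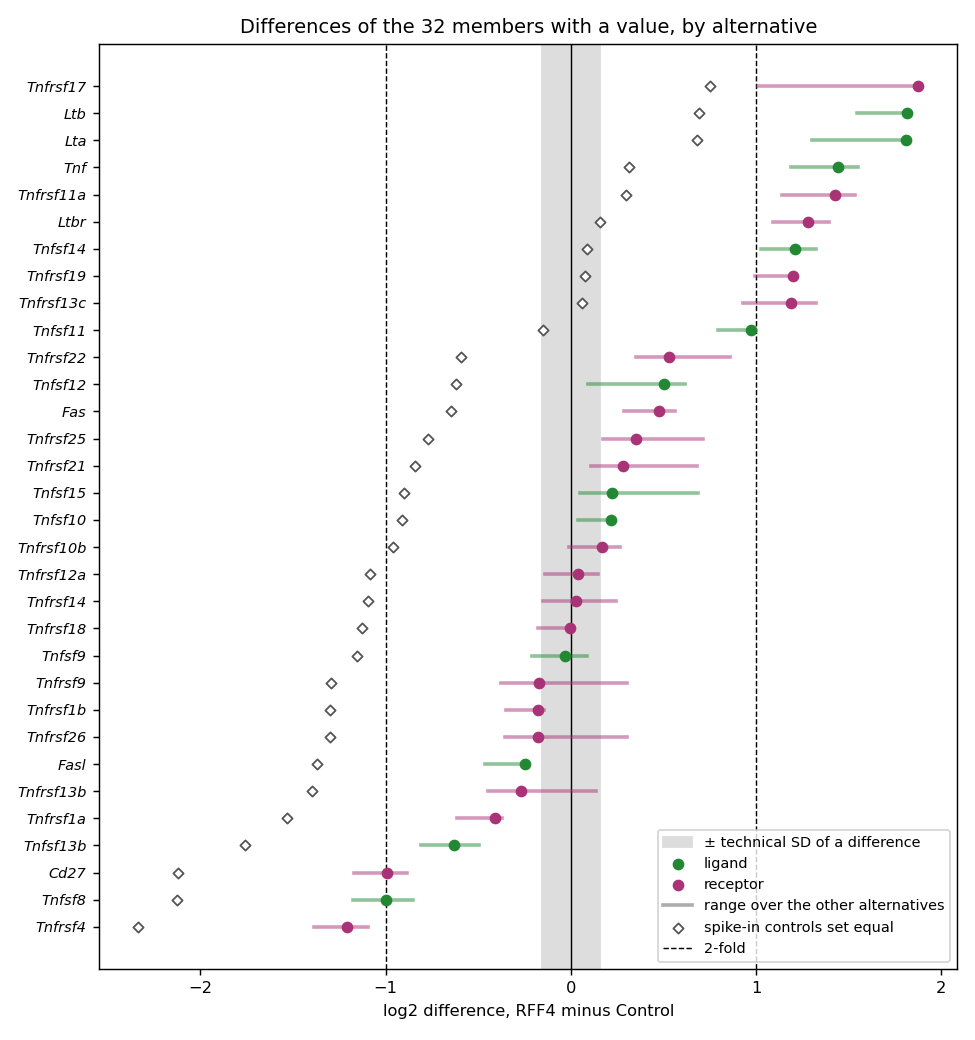
Log2 difference, RFF4 minus Control, of the 32 members with a value, ordered by size. Bars give the range over the alternatives other than the spike-in scaling, diamonds the value under the spike-in scaling, and the gray band the technical SD of 0.158 on either side of 0. The 9 points to the right of the 2-fold line have diamonds between 0.06 and 0.75, and the *Tnfrsf4* bar lies wholly to the left of the 2-fold line.

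Set side by side as ligands and receptors, 24 known pairs were listed and both partners were measured in 16. In 2 pairs, *Ltb* with *Ltbr* and *Tnfsf14* with *Ltbr*, both partners were more than 2-fold higher. In 5 pairs only the ligand was past 2-fold, among them *Tnf* (1.44) and *Lta* (1.81) with *Tnfrsf1a* (−0.41) and *Tnfrsf1b* (−0.18), and *Tnfsf14* (1.21) with *Tnfrsf14* (0.03, and 0.46 with its other probe). In 3 pairs only the receptor was, *Tnfsf11* (0.97) with *Tnfrsf11a* (1.42) and *Tnfsf13b* (−0.63) with *Tnfrsf13c* (1.19) and with *Tnfrsf17* (1.88). The remaining 6 pairs, *Fasl* with *Fas* and *Tnfsf10* with *Tnfrsf10b* among them, had neither. Pairs share genes, with *Ltbr* in both of the first 2 and *Tnf*, *Lta*, *Tnfsf14* and *Tnfsf13b* each in more than 1. The counts thus rest on few genes, and of all genes 12.3% were more than 2-fold higher and 5.06% lower. For *Tnfrsf4* and *Cd27*, the lower receptors, the ligands *Tnfsf4* and *Cd70* had no measured difference in these cells. Other neighbors differed unequally. *Tnfsf15* and *Tnfsf8*, adjacent on chromosome 4, had 0.23 and −1.0, and *Cd27*, *Ltbr* and *Tnfrsf1a*, with 1 gene between neighbors on chromosome 6, had −0.99, 1.28 and −0.41.

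Markers of several other cell types were higher on the same array as these ligands and receptors. The T cell and IEL markers were well above background for all 13 with a probe, of 15 listed, with a median difference of 0.15 and a summed linear signal, relative to the 75th percentile, of 2310 on the Control array and 3040 on the array labelled RFF4. Of these 13 genes, 8 were higher and 5 lower, and the adhesion molecule gene *Cd2* (2.22) and the granzyme gene *Gzma* (1.02) were more than 2-fold higher. Markers of the intestinal epithelium were higher in 15 of 15 genes, with a median of 1.47 and a sum of 197 and 588, and the 4 Paneth and goblet cell genes with a probe had a median of 1.76 and a sum of 68.1 and 241. Macrophage and dendritic cell markers were higher in all 13 genes with a difference, of 15 listed, with a median of 2.23 and a sum of 76.4 and 170.2. The brightest of them on the Control array, *Itgax* (5.52) and *Itgam* (4.32), differed by 0.20 and 0.92. *Fcgr1*, well above background on the Control array only, at −5.01 against −4.46, has no difference. The values of *C1qa* and *C1qc* are bounds, since neither was well above background on the Control array, and over the 11 genes measured on both arrays the median was 1.57. Of 9 B and plasma cell markers, 5 were measured, with a median of 1.68 and a sum of 26.8 and 59.0. The plasma cell genes *Jchain* (1.68) and *Mzb1* (2.15) and the B cell gene *Ms4a1* (1.79) were higher, the B cell genes *Cd22* (0.21) and *Cd79b* (−0.26) differed by less than 2-fold, and *Cd79a*, *Pax5* and *Blk* were not well above background on either array. Of 10 stromal and endothelial markers, 5 were measured, with a median of 0.89 and a sum of 1.24 and 2.03. Of these 5, 3 were higher and 2 lower, *Pecam1* (−1.03) and *Col1a1* (−0.16), and *Cdh5*, *Lum*, *Pdgfra*, *Pdgfrb* and *Vwf* were not well above background. *Ltbr*, *Tnfrsf11a*, *Tnfrsf19*, *Tnfrsf13c* and *Tnfrsf17* are known from such cells more than from T cells, and *Ltb*, *Lta*, *Tnf* and *Tnfsf14* are made by lymphoid and myeloid cells of several kinds. The sort for TCRβ and CD8α is meant to remove cells other than T cells, and the purity that the study states was not measured here. Of 2 genes whose proteins the sort excluded, *Cd4* was well above background on both arrays, at 1.67 and 1.80. *Cd8b1* was so on the Control array only, at −3.52, and its difference of −0.72 is a bound. The part of other cells in these differences was not tested. More or fewer cells of a type and more or less RNA per cell cannot be told apart in pooled RNA.

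**Figure D3:**
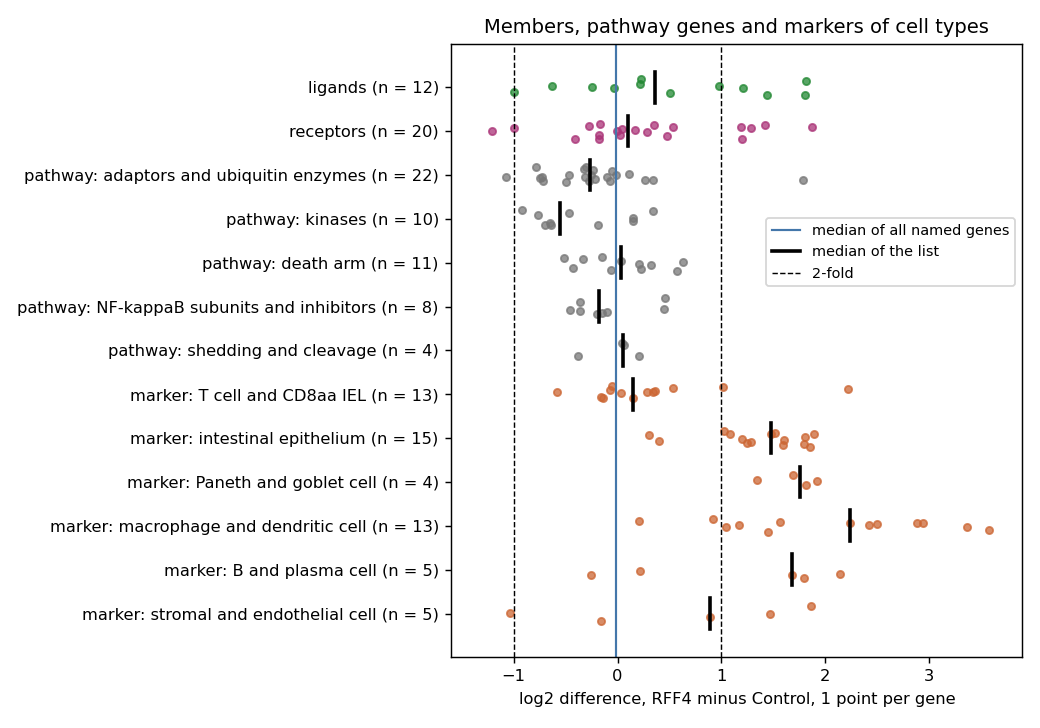
Log2 difference, RFF4 minus Control, with 1 point per gene, for the ligands and receptors, the genes that act with them inside the cell, and markers of cell types. Vertical bars give the median of each list, the blue line the median of all named genes and the dashed lines 2-fold. The signaling genes lie mostly between the dashed lines, and the epithelial and macrophage markers lie mostly to the right of 2-fold.

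The genes through which these receptors signal inside the cell were taken as a list of 55, all with a difference. Of them, 18 were higher and 37 lower, beside 6604 higher and 6909 lower of the 13513 named genes, with a median of −0.20 (−0.38 with median scaling and −1.33 with spike-in scaling), and 1 was more than 2-fold higher and 1 more than 2-fold lower (1.82% each, beside 12.3% and 5.06% of all genes). *Birc2*, which encodes the ubiquitin ligase cIAP1 of the TNF receptor complex, had 2.53 on the Control array and 1.46 on the array labelled RFF4, a difference of −1.07. *Tifa*, which encodes an adaptor that binds TRAF6, had −2.03 and −0.24, a difference of 1.79. The 10 genes of the kinase group, which holds kinases and subunits that bind them, had a median of −0.55. Among the lower ones were *Ikbkb* (−0.92) and *Chuk* (−0.76), the catalytic subunits of the IκB kinase. *Map3k14* (−0.64), which encodes the kinase NIK of the alternative pathway, was also lower, and its other probe differed by 0.17. The adaptors *Traf3* (−0.73) and *Traf5* (−0.79), which bind costimulatory receptors, were also lower within 2-fold. In the NF-κB group of 8 genes, 2 were higher and 6 lower, with a median of −0.18. *Nfkb1* (0.46, and 0.063 with its other probe) and *Nfkbia* (0.45), the gene of the inhibitor IκBα, were the higher ones. The lower ones were *Nfkb2* (−0.46), *Nfkbib* (−0.36), *Nfkbie* (−0.36), *Relb* (−0.15), *Rela* (−0.10) and *Rel*, a bound at −0.20. The other probes of *Nfkbib* differed by −1.14, past 2-fold, and −0.084. *Tnfaip3*, an inhibitor induced by TNF, was at 7.29 and 6.97 (−0.33). The 11 genes of the death arm, from *Cflar* (−0.52, but 0.12 and 0.065 with its other probes) to *Mlkl* (0.63), had a median of 0.04. The 4 genes of shedding and cleavage, *Adam17* (0.21) among them, had 0.05. Outside the symbol rule, *Rell2*, which encodes a protein that binds the superfamily receptor RELT, had 0.94 and −0.41 (−1.34), and *Relt* itself had a difference of −0.41.

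The share of genes past 2-fold varied with signal. The 12955 genes measured on both arrays were divided into 8 bins of mean signal. In the dimmest bin the median difference was 0.48 and 27.0% of genes were more than 2-fold higher, and 8 members lie in it, of which *Lta*, *Tnfrsf17* and *Tnfrsf19* were past 2-fold. In the brightest bin the median was 0.15 and 4.81% of genes were more than 2-fold higher, and *Ltb* was the only (1) member past 2-fold among the 4 there. *Tnfsf14* and *Ltbr* lie in a bin with a median of −0.12 and 8.15% of genes more than 2-fold higher, and *Tnf* and *Tnfrsf11a* in a bin with −0.05 and 13.8%. *Tnfrsf4* and *Tnfsf8* share a bin with a median of −0.15, where 5.99% of genes were more than 2-fold lower.

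**Figure D4:**
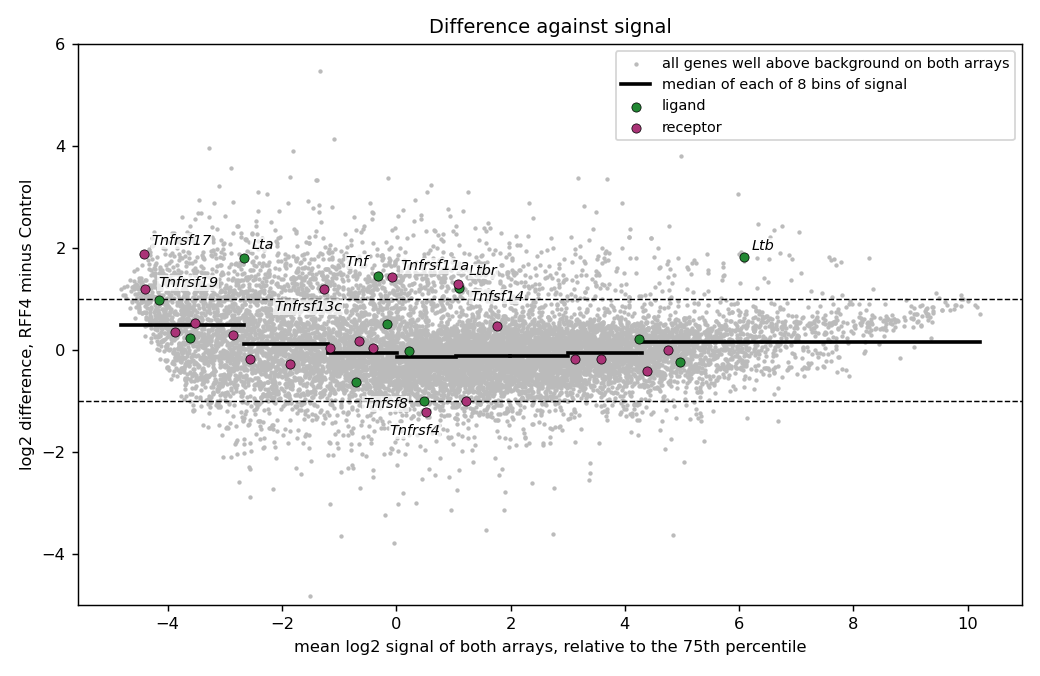
Log2 difference, RFF4 minus Control, against mean log2 signal for the 12955 genes measured above background on each array (gray), with the ligands and receptors in color and those past 2-fold named. Black lines give the median of each of 8 bins of signal, from 0.48 in the dimmest to 0.15 in the brightest. *Lta*, *Tnfrsf17* and *Tnfrsf19* lie in the dimmest bin and *Ltb* in the brightest.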

How the data were processed

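RNA of sorted TCRαβ+ CD8αα+ IELs was measured on 2 Agilent SurePrint mouse arrays of 1 color, 1 pool per genotype, on the same slide and in the same scan. Per the labels, the authors' scanner software, Agilent Feature Extraction 10.7.1.1, made the deposited intensity values, which are background-subtracted, linear and not normalized between arrays. The authors also deposited a table of log2 values from GeneSpring (settings not given in the sources used here), centered per probe, of whose 62976 lines 55821 were used. Log2 of the processed signal was taken and each array's 75th percentile subtracted. Control spots and outlier spots (102 and 131) were left out. Spots of a probe were averaged, and each gene took its brightest probe, named through its accession and RefSeq (GRCm38.p6). A gene was kept if on 1 array or both at least 50% of its spots lay well above background. A difference is a bound if the dimmer array fell short of that, and 0 of the 32 member differences are bounds. No spot was saturated (0). No coordinates of the arrays' own build were used. The number of arrays limits the precision.

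Members and gene lists were chosen with earlier results of these data known. Any member may be named. The result of 1 marker gene is not reported here. From other lists, genes past 2-fold, genes of high level and a few of known function were named, the last chosen after their values were seen. Steps were tested on simulated data and run with Python 3.11.15, numpy 2.4.6, pandas 2.3.3, R 4.3.3 and limma 3.58.1, and plots were drawn with matplotlib 3.10.9. Alternatives were median scaling, equal spike-in controls, cyclic loess, quantile normalization, the normexp model with an added offset of 50, the authors' table, averages over probes, a filter requiring signal on both arrays, none at all, and use of the outlier spots.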

Additional observations from a re-analysis of the deposited data

How the results depend on the processing

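No paired analysis was possible because each genotype has 1 array, and leaving out a replicate was not possible for the same reason. Scaling to the median gave medians of 0.19 for the ligands, −0.074 for the receptors and −0.38 for the pathway genes, and 3 members more than 2-fold lower, beside 8.06% of all genes. With the spike-in controls set equal, 0 members were more than 2-fold higher and 14 lower, beside 1.39% and 56.9% of all genes, and the medians were −0.86, −1.02 and −1.33. Quantile normalization, cyclic loess and normexp background correction each gave 1 lower member, *Tnfrsf4*, beside 5.49%, 4.90% and 3.67% of all genes, and *Tnfsf8* was lost. Cyclic loess gave a median of 0.16 for the ligands and 0.20 for the receptors, the reverse of their order in the report, and normexp gave 0.56 for the ligands and 0.27 for the receptors. The mean of all probes also reversed it, with 0.22 for the ligands and 0.26 for the receptors, and gave 3 lower members, *Cd27* among them, beside 4.76% of all genes, and the authors' table also gave 3, beside 5.22%. Without a filter 14 members were higher and the medians were 0.97 for the ligands and 0.28 for the receptors. Outside the spike-in scaling, 8 or 9 of the 9 higher members remained past 2-fold, the losses being *Tnfrsf19* under cyclic loess and *Tnfrsf13c* under normexp. The causes were not tested, except for known effects of 3 settings. Median and spike-in scaling shift every gene by a constant and change which genes have a difference (13618 and 14212 genes, against 13513). The missing filter adds genes at background. Signal over background, 9.47 on the Control array and 5.78 on the array labelled RFF4, limits how far a lower signal can be followed.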
